A study of Mus musculus with 18 samples.

Results

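Gene expression of the induced pluripotent stem (iPS) line IP14D-1 was compared with that of the embryonic stem (ES) line ESC2, which carries the same strain label, B6 x D2 F1. The comparison used the 3 arrays whose titles name IP14D-1 and the 3 whose titles name ESC2, 6 of the 18 arrays analysed, and covered 18193 genes. The other 12 arrays came from 3 iPS lines, IP20D-3 and IP36D-3 (B6 x D2 F1) and IP14D-101 (B6 x 129S2 F1), and from the ES line R1 (129X1/SvJ x 129S1 F1), with 3 arrays each. All 6 lines were grown with LIF on fibroblast feeder cells that had been stopped from dividing with mitomycin C, in medium that held either a serum replacement or fetal serum, with neither medium tied to a line in the labels. Each cell type is represented in this comparison by 1 line, so a difference between iPS and ES cells, between 2 lines and between 2 media cannot be told apart. The series' design text calls the 3 arrays of a line biological replicates and gives embryonic fibroblasts as the source of the iPS lines.

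Pluripotent mouse cells express the transcription factors Pou5f1, Sox2 and Nanog, and in the state supported by LIF also Klf2, Klf4, Klf5, Esrrb and Tbx3. Cells that lack amino acids or accumulate unfolded protein phosphorylate the initiation factor eIF2. Most translation then slows while that of ATF4 rises, and ATF4 with its target CHOP (the product of Ddit3) switches on genes for amino acid uptake, amino acid synthesis and tRNA charging. This is the integrated stress response. A separate arm of the unfolded protein response raises chaperones of the endoplasmic reticulum such as Hspa5, and the SREBP2 factor drives the enzymes of cholesterol synthesis when sterols are scarce.

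Both lines carried the marker profile of pluripotent cells. All 10 markers set down for that cell type (Pou5f1, Nanog, Sox2, Zfp42, Utf1, Dppa4, Dppa5a, Lin28a, Tdgf1 and Fgf4) had line means above 9 on the log2 scale in IP14D-1 and in ESC2, where the median gene stood at 5.88 to 5.90 in IP14D-1 arrays and 5.80 to 5.82 in ESC2 arrays. None of the 10 was called between the lines. Of 30 listed genes of fibroblasts, the feeder cell type, 29 were measured, and their mean level was 5.97, 6.04 and 6.02 in IP14D-1 arrays, against 5.83, 5.73 and 5.83 in ESC2 arrays. Of the 29, 12 had a line mean of at least 6 in IP14D-1, in ESC2 or in both. A positive difference was seen in 23, and by limma's adjusted p alone 11 were higher and 4 lower in IP14D-1. By the adjusted p alone 39.8% of all genes differed in either direction. Lum (3.38 in IP14D-1, 3.35 in ESC2) and Prrx1 (3.50 in IP14D-1, 3.30 in ESC2) lay far under the array medians. Well above them stood Fn1 (11.17 in IP14D-1, 10.23 in ESC2), Tagln (10.76 in IP14D-1, 10.16 in ESC2), Acta2 (10.03 in IP14D-1, 8.87 in ESC2) and Ccn2 (9.66 in IP14D-1, 9.99 in ESC2). The part of feeder cells in the results was not tested. The ratio of 3' to 5' signal of the beta-actin control probe sets was 1.25, 1.26 and 1.29 in IP14D-1, against 1.54, 1.48 and 1.56 in ESC2. The same ratio for Gapdh differed the other way, at 0.94, 0.98 and 0.96 in IP14D-1, against 0.91, 0.90 and 0.87 in ESC2. The 18S ribosomal control probe set read 71.7 to 88.5 in IP14D-1, against 203 to 230 in ESC2, on the linear scale. The beta-actin and 18S values move with the whole comparison, and the part of RNA quality in it was not tested.

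A gene was called at a limma adjusted p under 0.05 together with a log2 difference of at least 1, which is 2-fold. By this rule 626 genes were called (3.44% of those tested), 378 higher in IP14D-1 (2.08%) and 248 lower (1.36%). The size threshold alone decided these calls, since every gene past it also had an adjusted p under 0.05, and 7243 genes (39.8%) passed on the adjusted p alone. Arrays of the 2 lines did not overlap in any of the 626 genes, against 54.4% of all genes tested. The median size was 1.20 among rises and 1.14 among falls, in log2. Rises reached further: 26 were at least 2 and 3 at least 3, against 7 falls of at least 2 and 0 of at least 3. The median over all genes was 0.064. Genes whose mean over all arrays was under 6 had a median difference of 0.10, and those between 8 and 10 one of -0.07. Equal array medians gave 274 higher and 342 lower genes, so the split between directions depends on the scaling. Setting the median difference to 0, an alternative chosen after seeing the data, gave 293 higher and 318 lower.

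**Figure D1:**
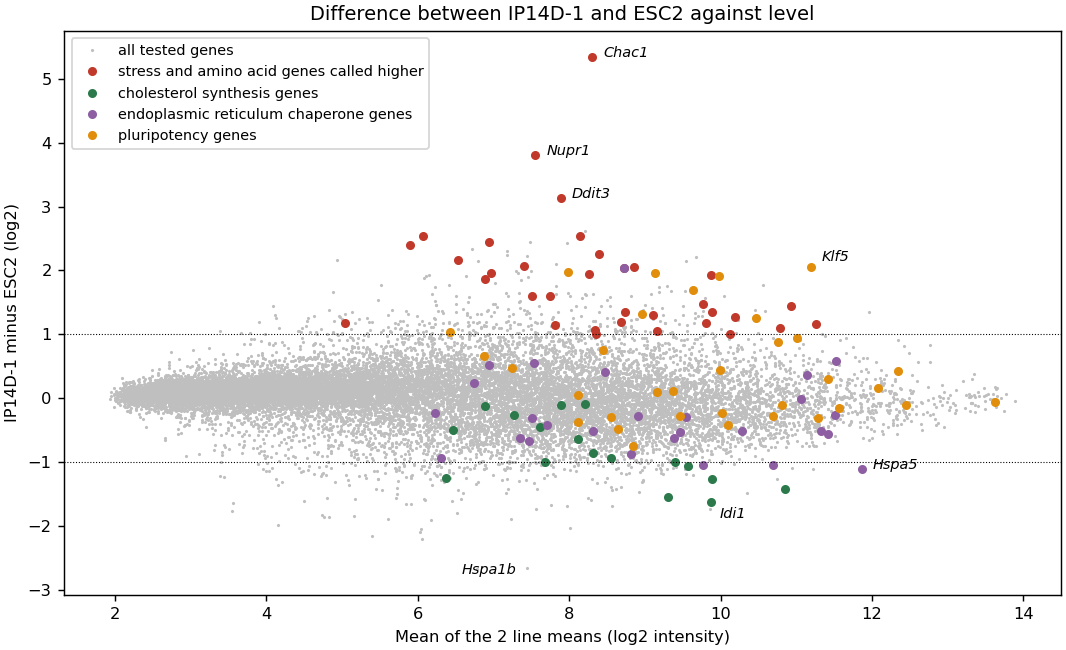
Difference between the line means of IP14D-1 and ESC2 (log2, vertical) against the mean of the 2 line means (log2 intensity, horizontal), 1 point per gene; dotted lines mark a difference of 1 in either direction. Stress and amino acid genes called higher reach 5.34 (Chac1), while all 17 cholesterol synthesis genes lie below 0.

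The largest difference was that of Chac1, which encodes an enzyme that breaks down glutathione and is a target of ATF4 and CHOP. Chac1 read 11.10, 11.24 and 10.59 in IP14D-1, against 5.68, 5.62 and 5.60 in ESC2 (log2 intensity). The arrays of the lines were far apart, and the ESC2 values lay under the array medians. The difference was 5.34 ± 0.31 (SE, adjusted p = 7.42e-10), and between 5.21 and 5.54 with any 1 array of either line left out. Nupr1, a small stress-induced chromatin protein, read 9.44, 10.23 and 8.72 in IP14D-1, against 5.71, 5.42 and 5.83 in ESC2. The IP14D-1 arrays spread over more than 1 log2 unit without reaching those of ESC2, and the difference was 3.81 ± 0.28 (adjusted p = 1.11e-08). Ddit3, which encodes CHOP, read 9.60, 9.82 and 8.95 in IP14D-1, against 6.35, 6.27 and 6.37 in ESC2. Here too the lowest IP14D-1 array stood well clear of every ESC2 array, with a difference of 3.13 ± 0.23 (adjusted p = 1.57e-08).

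The integrated stress response was the group with the greatest share of called genes. Of 17 listed regulators 16 were measured, 9 rose and 0 fell, with a median difference of 1.09 over the 16 against 0.064 over all genes. The 9 were Nupr1, Ddit3, Jdp2, Trib3, Atf3, Cebpb, Ppp1r15a, Atf4 and Nfe2l1. Atf4 itself read 11.98, 11.87 and 11.70 in IP14D-1, against 10.66, 10.68 and 10.72 in ESC2. The gap exceeded the spread of either line, at 1.17 ± 0.11 (adjusted p = 2.45e-07). Trib3, a pseudokinase that restrains ATF4 and CHOP, differed by 2.26 ± 0.26, the AP-1 family member Jdp2 by 2.55 ± 0.22 and the transcription factor Cebpb by 2.07 ± 0.16. The 4 kinases that phosphorylate eIF2 were not called: Eif2ak3, the kinase of the endoplasmic reticulum, differed by -0.37 ± 0.08 and Eif2ak4, the sensor of uncharged tRNA, by -0.37. When all probe sets of a gene were averaged, the call of Atf4 was lost.

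Among other known targets of ATF4 and CHOP, 10 of 19 measured genes rose and 0 fell (median 1.01). Stc2, a secreted glycoprotein, read 8.25, 8.56 and 7.67 in IP14D-1, against 5.89, 5.63 and 5.64 in ESC2, a difference of 2.44 ± 0.25. The lipoprotein receptor Vldlr differed by 2.39 ± 0.26, the membrane protein Herpud1, which takes part in degradation at the endoplasmic reticulum, by 2.03 ± 0.19, and Txnip, an inhibitor of thioredoxin, by 1.93 ± 0.13. The 3 uncalled targets with the highest levels were the translation repressor Eif4ebp1 (0.37 ± 0.08), the autophagy receptor Sqstm1 (0.61 ± 0.09) and the mitochondrial protease Lonp1 (0.76 ± 0.07). The genes that respond to oxidants through NRF2 gave 0 calls among 17 measured, with a median of 0.09. In limma, 5 of the 17 were higher and 4 lower by the adjusted p alone, and 12 had an unadjusted p under 0.05. Over all genes 39.8% passed on the adjusted p alone, and 8506 of 18193 had an unadjusted p under 0.05.

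Amino acid genes with a call were likewise all higher in IP14D-1. In amino acid and folate-linked synthesis 8 of 20 measured genes rose and 0 fell (median 0.71). Of these, Cth and Gpt2 were also counted among the ATF4 and CHOP targets. Pck2, the mitochondrial phosphoenolpyruvate carboxykinase, read 9.46, 9.76 and 9.01 in IP14D-1, against 6.77, 6.93 and 6.92 in ESC2. All 3 IP14D-1 arrays lay above 9 and no ESC2 array reached 7, and the difference was 2.54 ± 0.14 (adjusted p = 5.09e-10). Aldh18a1, which starts proline synthesis from glutamate, differed by 2.06 ± 0.13, the mitochondrial branched-chain transaminase Bcat2 by 1.95 ± 0.10 and the alanine transaminase Gpt2 by 1.60 ± 0.17. Asns, the asparagine synthetase, read 11.74, 11.84 and 11.56 in IP14D-1, against 11.09, 10.85 and 10.97 in ESC2, and differed by 0.74 ± 0.08 without a call. Psat1 of the serine pathway differed by 0.43 ± 0.07.

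Of 17 amino acid transport genes 6 rose and 0 fell (median 0.50). Slc1a4, a carrier of neutral amino acids, read 8.06, 8.39 and 7.39 in IP14D-1, against 6.20, 5.89 and 5.89 in ESC2, a difference of 1.95 ± 0.20. The groups did not overlap, although IP14D-1 spread over a full log2 unit. The glycine carrier Slc6a9 differed by 1.87 ± 0.14, and the 2 chains of the leucine exchanger, Slc7a5 and Slc3a2, by 1.35 ± 0.10 and 1.10 ± 0.10. Slc38a2, the glutamine carrier with the highest mean of the list, differed by 0.05 ± 0.07. Among tRNA synthetases 3 of 19 measured genes rose (median 0.27): Aars by 1.44 ± 0.09, Cars by 1.19 ± 0.09 and Vars by 1.05 ± 0.09 (0.98 and no call without the third ESC2 array). Gars (0.40 ± 0.08) and Nars (0.45 ± 0.08) were not called.

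Promoters of the genes that rose were read for a short sequence. The response element that C/EBP and ATF proteins bind was searched as TGATGNAA on both strands, in RefSeq windows (GRCm38.p6) of 250 bases before to 50 after the start of a gene, with no other motif required nearby. It was found in 3.24% of 14452 tested genes that had a window, in 7.21% of the 305 genes called higher with one and in 1.48% of the 203 called lower with one. Of the 5 lists of stress and amino acid genes above, 28 genes called higher had a window and 10 of these held the element (35.7%), against 19 of all 73 members with a window (26.0%). The 28 are part of the 73 and of the 305, so the shares are not separate groups. The 10 are among the 22 genes behind the 7.21%. The lists include known targets of ATF4 and CHOP, so a high share is partly built into their choice. A match describes letters in a window and is not a binding site shown here. The 6 matches that follow are examples from genes that rose, Aars being the tRNA synthetase with the largest rise. Vldlr (2.39) and Trib3 (2.26) rose more than Atf3 (2.16) and also held the element, but are not shown. The windows of Ddit3, Stc2, Cebpb and Atf4, all called higher, held no match. Capitals mark the element, read 5' to 3' on the strand of the gene. The stretches lie at chr2:119351029-119351076 (plus strand) for Chac1, chr1:191183416-191183463 (minus) for Atf3, chr7:126625553-126625600 (minus) for Nupr1, chr12:85599363-85599410 (plus) for Jdp2, chr14:55540143-55540190 (plus) for Pck2 and chr8:111033710-111033757 (plus) for Aars.
Chac1: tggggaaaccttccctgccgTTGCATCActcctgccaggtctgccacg
Atf3: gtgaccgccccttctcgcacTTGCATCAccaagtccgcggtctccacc
Nupr1: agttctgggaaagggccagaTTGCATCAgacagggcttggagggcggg
Jdp2: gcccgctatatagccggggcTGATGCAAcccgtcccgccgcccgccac
Pck2: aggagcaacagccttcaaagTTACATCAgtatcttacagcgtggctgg
Aars: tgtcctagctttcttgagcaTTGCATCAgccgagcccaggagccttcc
In Jdp2 the element reads in the direction of the gene, and in the other 5 on the opposite strand. Chac1, Atf3, Nupr1 and Aars share the same 8 letters, and Pck2 differs inside the element.

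**Figure D2:**
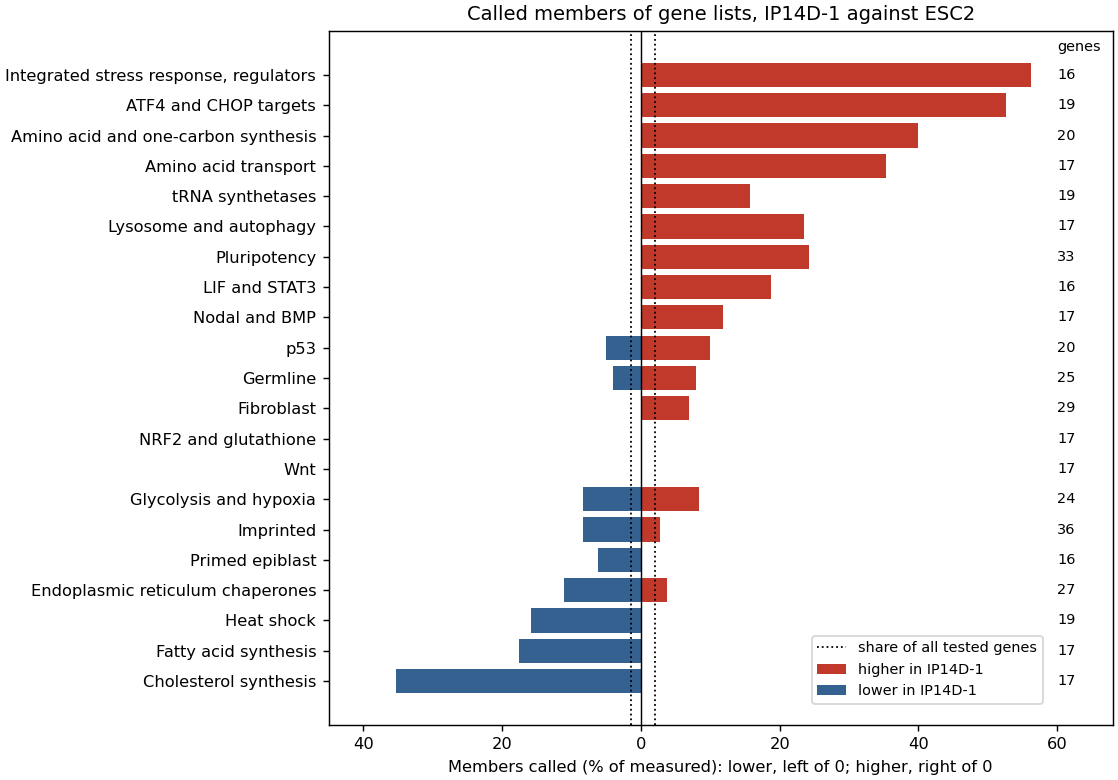
Members called in 21 gene lists as percent of the members measured (bars right of 0: higher in IP14D-1; bars left of 0: lower in IP14D-1), with the number measured at the right. Dotted lines mark the shares of all tested genes, 2.08% higher and 1.36% lower.

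Chaperones of the endoplasmic reticulum did not follow the amino acid genes. Of 27 measured genes 3 fell and 1 rose, the same Herpud1, and the median was -0.42. Hspa5, the main chaperone of that compartment, read 11.25, 11.19 and 11.52 in IP14D-1, against 12.47, 12.34 and 12.45 in ESC2. Every IP14D-1 array was below every ESC2 array, and the difference was -1.10 ± 0.08 (adjusted p = 1.33e-08). Xbp1, a transcription factor of the unfolded protein response, differed by -1.05 ± 0.10 and the secreted factor Manf by -1.05 ± 0.08. Calnexin (Canx) at -0.55 ± 0.08 and calreticulin (Calr) at 0.59 ± 0.09 were not called and had opposite signs. Without the second IP14D-1 array Xbp1 (-0.99) and Manf (-0.98) lost their calls, and averaging probe sets left 1 of the 3.

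The element of these chaperone promoters, CCAAT followed after 9 bases by CCACG, was found in 9 of the 23 listed genes with a window (39.1%) and in 0.14% of all tested genes with one. It is shown in capitals for Hspa5 at chr2:34772005-34772063 (plus strand).
Hspa5: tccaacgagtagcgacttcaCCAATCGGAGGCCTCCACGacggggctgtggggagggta

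Enzymes of cholesterol synthesis were lower in IP14D-1. Of 20 listed genes 17 were measured, 6 fell and 0 rose, and all 17 differences were negative, with a median of -0.94 against 0.064 over all genes. In the order of the pathway, Hmgcs1, which makes the precursor of mevalonate, read 10.08, 9.91 and 10.42 in IP14D-1, against 11.46, 11.65 and 11.56 in ESC2. No array of IP14D-1 came within 1 log2 unit of an ESC2 array, and the difference was -1.42 ± 0.12 (adjusted p = 4.22e-08). Idi1, the isomerase that follows mevalonate, read 8.96, 8.77 and 9.45 in IP14D-1, against 10.61, 10.76 and 10.66 in ESC2, a difference of -1.62 ± 0.16. Fdps, which makes farnesyl diphosphate, differed by -1.27 ± 0.13, and its other probe set, at a mean under 6, did not share the direction. Fdft1 (squalene synthase) differed by -1.54 ± 0.10, and of its 3 other probe sets only the one at a mean of at least 6 was also lower. The remaining calls were Sqle (squalene epoxidase), at -1.06 ± 0.08 (-0.99 without the second IP14D-1 array), and the later enzyme Hsd17b7, at -1.25 ± 0.10. Msmo1 (-0.99 ± 0.08), Nsdhl (-0.94 ± 0.08) and Cyp51 (-0.85 ± 0.07) lay just under the size threshold. Averaging probe sets left 3 of the 6 calls, and equal array medians gave 9.

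Genes that control sterol balance did not share this shift as a list (14 measured, median -0.03). The cholesterol exporter Abca1 rose, with 7.91, 8.10 and 7.81 in IP14D-1, against 6.81, 6.71 and 6.80 in ESC2, a difference of 1.17 ± 0.12 (adjusted p = 3.25e-07). Srebf2, which encodes SREBP2, stood 0.56 ± 0.11 higher without a call. In fatty acid synthesis 3 of 17 genes fell and 0 rose, with a median of -0.29. By limma's adjusted p alone 9 were lower and 2 higher, where 39.8% of all genes passed in either direction. The falls were those of Acsl4, which activates long unsaturated fatty acids, by 1.39 ± 0.15, the desaturase Scd1 by 1.33 ± 0.10 and the elongase Elovl1 by 1.32 ± 0.11. The desaturase Scd2 (-0.80 ± 0.08), Acly (0.19 ± 0.08) and Elovl6 (0.24 ± 0.12) were not called. The sterol element TCACCCCAC was found, on either strand, in 1 of the 14 cholesterol genes with a window and in 0.68% of all tested genes. That gene is Hmgcs1, shown with the element in capitals, at chr13:119690194-119690242 (plus strand).
Hmgcs1: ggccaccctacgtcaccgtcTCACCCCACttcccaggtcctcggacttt

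Of the heat shock genes 3 of 19 measured fell and 0 rose (median -0.20). Hspa1b, the inducible Hsp70, read 6.01, 5.95 and 6.38 in IP14D-1, against 8.54, 8.91 and 8.88 in ESC2. The arrays lay more than 2 log2 units apart, and the difference was -2.66 ± 0.18 (adjusted p = 4.67e-09). Its near-identical copy Hspa1a differed by -1.14 ± 0.16 (-0.95 without the second IP14D-1 array), and how the probes divide the signal between the 2 copies is uncertain. The cochaperone Dnajb1 differed by -1.08 ± 0.10. The constitutive Hspa8 (-0.13 ± 0.07) and Hsp90aa1 (-0.01 ± 0.08) were not called. A heat shock half-site pair, GAANNTTC on either strand, was found in 10 of 16 listed genes with a window (62.5%) and in 7.6% of all tested genes, and in Hspa1b lies at chr17:34959315-34959362 (minus strand), in capitals.
Hspa1b: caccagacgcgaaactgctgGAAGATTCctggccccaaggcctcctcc

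The arrays of IP14D-1 deviated from their mean in the same order in most of these genes. The third IP14D-1 array was the lowest of its line in 33 of the 34 stress and amino acid genes called higher, and the second was the highest in 31. The median deviation from the mean of the line was 0.05, 0.27 and -0.37 in arrays 1, 2 and 3 of IP14D-1. In ESC2 the same 34 genes deviated by 0.03, -0.01 and -0.01, and the third array was lowest in 11. The third IP14D-1 array was lowest in 29.4% of all genes and in 52.4% of the 378 genes called higher. It was the highest of its line in all 6 cholesterol genes and all 3 heat shock genes called lower. The same held in 154 of all 248 genes called lower and in 7097 of all 18193 genes. This order of arrays was therefore not confined to these lists. The median SD of the 34 genes was 0.344 in IP14D-1 and 0.085 in ESC2, against 0.096 in IP14D-1 and 0.087 in ESC2 over all genes.

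**Figure D3:**
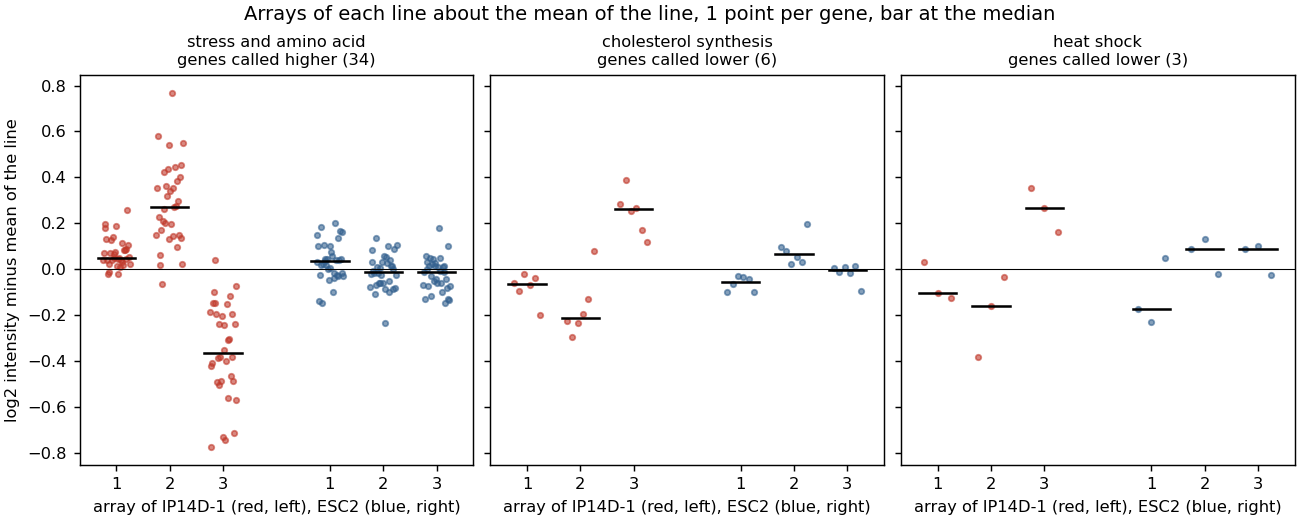
Deviation of each array from the mean of its line (log2, vertical) for genes called in 3 groups of lists, 1 point per gene and a bar at the median, with arrays 1 to 3 of IP14D-1 left of those of ESC2. The third IP14D-1 array is lowest in 33 of 34 stress and amino acid genes and highest in the 6 cholesterol genes.

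A minority of pluripotency genes rose in IP14D-1, Klf and Esrrb genes among them. Of 35 listed genes 33 were measured, 8 rose and 0 fell, with a median of 0.16. Of the 33, 20 differences were positive and 13 negative, and by limma's adjusted p alone 16 were higher and 9 lower. Over all genes 39.8% passed on the adjusted p alone. Naive-state genes such as Tfcp2l1 (0.75), Zfp42 (0.10), Nr5a2 (-0.47) and Dppa3 (-0.75) gave no call. Klf5, a transcription factor of the naive network, read 12.24, 12.31 and 12.13 in IP14D-1, against 10.23, 10.16 and 10.12 in ESC2, a difference of 2.06 ± 0.08 (adjusted p = 1.26e-11). Esrrb, an orphan nuclear receptor, read 10.12, 10.21 and 10.03 in IP14D-1, against 8.23, 8.07 and 8.16 in ESC2, a difference of 1.97 ± 0.10 (adjusted p = 2.94e-10). In both genes the gap was many times the spread within either line. Tbx3 differed by 1.97 ± 0.11, Klf2 by 1.92 ± 0.09, the nuclear receptor Nr0b1 by 1.69 ± 0.07, the adhesion protein Jam2 by 1.32 ± 0.09 and Klf4 by 1.25 ± 0.07. The eighth was Prdm14. Of the 2 other Klf5 probe sets 1 was higher in IP14D-1 too, and averaging probe sets ended the call of Klf5.

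Core factors gave values close to each other. Pou5f1 read 12.55, 12.50 and 12.61 in IP14D-1, against 12.21, 12.23 and 11.92 in ESC2, a difference of 0.43 ± 0.08 that was not called for its size. Nanog differed by 0.31 ± 0.08 and Sox2 by 0.16 ± 0.08. Myc, which is also a reprogramming factor, stood 0.77 ± 0.09 lower without a call. Among genes that mark the primed epiblast, a later state, 1 of 16 fell (median -0.34): the growth factor Fgf5 read 5.45, 5.12 and 5.96 in IP14D-1, against 6.70, 7.18 and 6.72 in ESC2, a difference of -1.36 ± 0.21. The methyltransferase Dnmt3b differed by -0.45 ± 0.07. Without the third IP14D-1 array 3 primed genes were lower.

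In the LIF pathway the receptor genes and Jak1 gave no call. Of 16 measured genes 3 rose and 0 fell. Junb rose by 1.10 ± 0.12 beside Klf4 and Klf5, and lost its call without the third IP14D-1 array (0.99) or the first ESC2 array (0.97), while the feedback inhibitor Socs3 differed by -0.84 ± 0.15. Neither of the 2 other Socs3 probe sets, both at a mean of at least 6, shared that direction. Among FGF and ERK genes 1 of 20 rose, Etv4 by 1.06 ± 0.11 (0.99 without the third ESC2 array). Of 17 Wnt genes 0 were called, with 8 under an unadjusted p of 0.05 in limma, as were 8506 of all 18193 genes. Smad7, an inhibitor of TGF-beta family signalling, rose by 1.46 ± 0.08 and Foxh1, a partner of SMAD proteins, by 1.02 ± 0.06. The lineage lists gave 1 call or none: 0 of 18 primitive endoderm genes, 1 of 15 mesoderm genes (Snai1, 1.02 ± 0.17), 1 of 14 neuroectoderm genes (Pax6, -1.28 ± 0.13) and 0 of 14 trophectoderm genes. Of all tested genes 3.44% were called, so these counts, like those of the FGF and Wnt lists, do not set the lists apart. In limma, 8 primitive endoderm and 8 trophectoderm genes had an unadjusted p under 0.05, against the same 8506 of 18193 genes. Snai1 stood under the array medians in both lines and lost its call without the first IP14D-1 array (0.92) or the third ESC2 array (0.92). Of 29 fibroblast genes 2 rose: Acta2 by 1.16 ± 0.11 and Col3a1, itself under the median, by 1.04 ± 0.19 (0.75 without the second IP14D-1 array and 0.93 without the second ESC2 array).

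Of the lysosome and autophagy genes 4 of 17 measured rose and 0 fell, with a median of 0.62. Hexa, a lysosomal hexosaminidase, read 9.91, 10.04 and 9.76 in IP14D-1, against 8.33, 8.31 and 8.16 in ESC2, a difference of 1.64 ± 0.11 (adjusted p = 4.69e-09). The other 3 lay close to the threshold: Lamp2 (1.07 ± 0.13), the protease Ctsd (1.02 ± 0.08) and the autophagy kinase Ulk1 (1.00 ± 0.08). Equal array medians left 1 call, and leaving out the second IP14D-1 array or the third ESC2 array left 2. In glycolysis and its hypoxia-regulated partners 2 of 24 genes rose and 2 fell, with the phosphofructokinase Pfkl at 1.57 ± 0.09 and the growth factor Vegfa at 1.15 ± 0.15 against Ankrd37 at -1.06 ± 0.14 and Egln3 at -1.05 ± 0.17. Both of those falls were lost without the second IP14D-1 array (-0.99 for Ankrd37 and -0.84 for Egln3), and that of Ankrd37 also without the first (-0.92). The other Egln3 probe set, at a mean under 6, was not lower. Of 20 measured p53 targets and cell cycle inhibitors, Bbc3 (1.15 ± 0.08) and Cdkn2a rose and Plk2 (-1.15 ± 0.13) fell. The gene of p53 itself was not among the 20. Bbc3 was also counted among the ATF4 and CHOP targets. Cdkn2a stood at 4.59 to 4.96 in IP14D-1 and 3.25 to 3.52 in ESC2, under the array medians.

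Imprinted genes differed in both directions. Zfp57, a zinc finger protein that keeps methylation on imprinted regions, read 8.70, 8.61 and 8.80 in IP14D-1, against 6.25, 6.21 and 6.31 in ESC2. The lines were clearly apart, with a difference of 2.45 ± 0.09 (adjusted p = 1.26e-11). Of 36 imprinted genes measured 1 rose and 3 fell (11.1% called, median 0.06), against 3.44% of all tested genes called. By limma's adjusted p alone 12 were higher and 13 lower, where 39.8% of all genes passed in either direction. Peg10 rose by 2.17 ± 0.16, with no ESC2 array above 4, while Atp10a differed by -1.90 ± 0.15, Magel2 by -1.16 ± 0.15 and Sfmbt2 by -1.09 ± 0.10. In the Dlk1-Dio3 region the noncoding Meg3 read 10.81, 10.97 and 10.91 in IP14D-1, against 11.31, 11.33 and 11.39 in ESC2, a difference of -0.45 ± 0.16 without a call. Rian (-0.01 ± 0.18) and Mirg (0.48 ± 0.17) were not called, and the 1.35 ± 0.13 by which Dlk1 rose was not shared in direction by its second probe set. Of 25 germline genes 2 rose, Tex14 by 1.32 ± 0.11 and the receptor Kit by 1.19 ± 0.12, and Rhox5, an X-linked homeobox gene, fell by 1.48 on the log2 scale.

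Several of the 12 largest rises and falls belonged to none of these pathways. Among rises, Anp32a, an acidic nuclear histone chaperone, read 9.50, 9.33 and 9.74 in IP14D-1, against 6.81, 7.07 and 6.82 in ESC2, a difference of 2.62 ± 0.31. Ptp4a3, a phosphatase, differed by 2.43 ± 0.11, Itga5, a chain of the fibronectin receptor, by 2.34 ± 0.11, and Crebrf, a regulator of CREB3 proteins, by 2.30 ± 0.16. The largest fall was the noncoding Rab26os, with 5.30, 5.35 and 5.71 in IP14D-1, against 7.99, 8.15 and 8.23 in ESC2, a difference of -2.67 ± 0.14 (adjusted p = 2.37e-10). Its IP14D-1 values lay under the array medians, as did those of Gpsm1 (-2.20 ± 0.17), Pwwp3b (-2.10 ± 0.16), Mfap3l (-2.04 ± 0.18), Atp10a, Mex3b (-1.89 ± 0.16) and Greb1l (-1.79 ± 0.15). The lysophosphatidic acid receptor Lpar4 (-2.03 ± 0.19), the interferon-inducible GTPase Irgm1 (-1.90 ± 0.16), the zinc importer Slc39a10 (-1.74 ± 0.12) and the transporter Flvcr1 (-1.73 ± 0.14) stood above them in both lines. Slc39a10 read 8.92, 8.74 and 9.34 in IP14D-1, against 10.63, 10.81 and 10.77 in ESC2, with no overlap, which the choice of these genes required. Averaging probe sets ended the calls of Anp32a, Itga5, Gpsm1, Atp10a and Flvcr1.

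**Figure D4:**
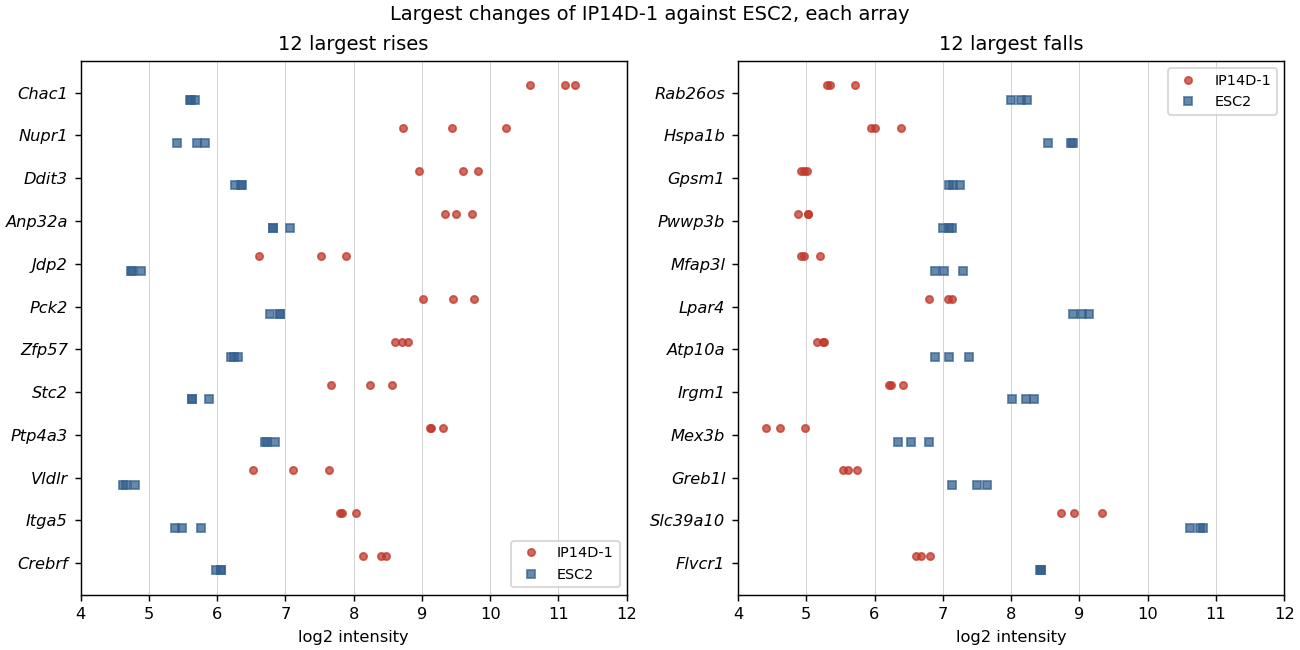
Log2 intensity of the 12 largest rises (left) and falls (right) in each array, with circles for the 3 IP14D-1 arrays above squares for the 3 ESC2 arrays. Only genes without overlap of arrays between the lines were eligible, a trait of 54.4% of all genes tested. Among the genes shown IP14D-1 spreads widest in Nupr1, from 8.72 to 10.23.

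The same genes were placed among the other 4 lines. IP14D-1 lay above all 5 other lines in 69 of the 378 rises (18.3%), as it did in 7.4% of all genes, and below them in 79 of the 248 falls (31.9%), as in 12.1% of all genes. ESC2 lay below all 5 other lines in 279 of the rises (73.8%), as it did in 26.3% of all genes, and above them in 194 of the falls (78.2%), as in 12.1% of all genes. A rise requires ESC2 to lie under IP14D-1, so these shares are partly fixed by the choice of genes and are given as a description. Chac1 averaged 10.73 in IP20D-3, 9.42 in IP36D-3, 7.34 in IP14D-101 and 7.65 in R1. Its ESC2 level of 5.63 was the lowest of the 6 lines, and its level in IP14D-1 was the highest by less than its own SD over IP20D-3. Ddit3 averaged 9.86 in IP20D-3, 8.05 in IP36D-3, 6.13 in IP14D-101 and 6.50 in R1, so that ESC2 (6.33) lay between the last 2 lines.

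Other contrasts used the same IP14D-1 arrays and are therefore not independent of the first. Against R1, 700 genes were called (3.85%), and against the mean of IP20D-3 and IP36D-3, 459 (2.52%). Of the 16 stress regulators 6 were higher against R1 and 0 against the other B6 x D2 F1 iPS lines. The 19 ATF4 and CHOP targets gave 6 against R1 and 0 against those iPS lines. Against R1, 3 of 20 amino acid synthesis genes (median 0.06), 1 of 17 transport genes (median 0.26) and 0 of 19 tRNA synthetases (median 0.03) were higher. Aars differed from R1 by 0.13, Bcat2 by -0.28 and Vars by -0.31, all without a call. Against those iPS lines 1 synthesis gene was higher, 1 transport gene was lower and 0 tRNA synthetases were called. By limma's unadjusted p under 0.05, 10 of the 16 regulators and 12 of the 19 targets differed from those iPS lines in either direction. The matching count over all genes was not taken for the contrasts with R1 and those iPS lines. Ddit3 differed by 2.96 from R1 and by 0.50 from those iPS lines. Of the 17 cholesterol genes 0 were called against R1 (median -0.50, 14 under an unadjusted p of 0.05) and 2 were lower against the iPS lines (median -0.51). Pluripotency genes gave 2 higher and 1 lower against R1, and 1 higher and 2 lower against the iPS lines. Of 29 fibroblast genes 12 were higher against the iPS lines, Acta2 by 3.54, and the part of feeder cells in these contrasts was not tested. All 4 measured genes of the Dlk1-Dio3 region were higher against the iPS lines, Meg3 by 5.33.

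**Figure D5:**
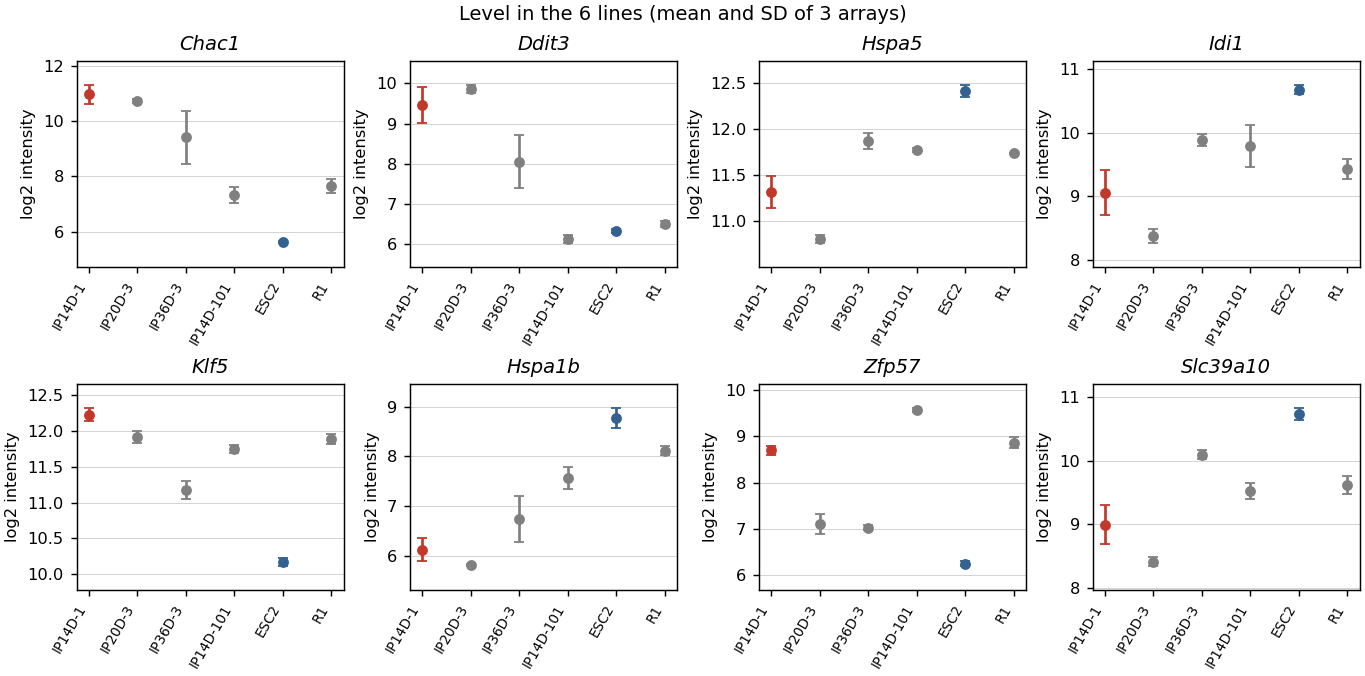
Mean log2 intensity and SD of 3 arrays in each of the 6 lines for 8 genes, with IP14D-1 in red and ESC2 in blue. Chac1, Klf5 and Zfp57 are lowest and Hspa5, Idi1, Hspa1b and Slc39a10 highest in ESC2, and Ddit3 is high in IP14D-1, IP20D-3 and IP36D-3.

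The 5 genes whose line means were most like those of Chac1 over the 6 lines, by Pearson correlation, were Mthfd2 (0.983), Mapk8ip2 (0.981), Slc3a2 (0.979), Rad9a (0.978) and Ctsl (0.978). Their line means ranged over 1.54, 0.43, 1.32, 1.03 and 0.91 log2 units, against 5.34 for Chac1. The 6 points are lines of differing strain and cell type, and the genes were picked for this likeness, so no test is given. The pick was made among genes with a line mean of at least 6 in any line, leaving out clone symbols. Mthfd2, a mitochondrial folate enzyme, read 10.52, 10.84 and 10.15 in IP14D-1, against 9.04, 9.09 and 8.97 in ESC2.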

How the data were processed

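The authors deposited probe set intensities on a linear scale, made with RMA per the submitters' processing notes. The version of RMA is not given in the sources used. The intensity medians of the 18 arrays lay between 29.1 and 30.5, and values were taken to log2 with no pseudocount. Precision is limited by the 3 arrays of each line. Of 45101 probe sets, 64 controls, 932 with several symbols and 9160 with none were left out. The other 34945 gave 18193 genes, taken at the probe set whose mean over the 18 arrays was highest. Symbols came from the platform annotation, and 34741 of the 34945 probe sets matched the RefSeq gene table of GRCm38.p6.

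One limma model (3.58.1, R 4.3.3) fitted to all 18 arrays, with 1 mean for each line and 12 residual degrees of freedom, gave the 3 contrasts, with Benjamini-Hochberg adjustment over all genes. Errors are its standard errors (n = 3 arrays per line). They rest on 1 spread per gene, pooled over the arrays of all 6 lines and moderated across genes. Separate passages or dishes are not named in the labels, so p-values measure this pooled spread between arrays. The pooling can make errors too small where IP14D-1 spread wider, as in Nupr1 (SD 0.756, against 0.211 in ESC2). The comparison, the 35 gene lists and the rule for named genes were chosen with earlier results of these data known. That rule takes the 12 largest rises and falls with a line mean of at least 6 and no overlap of arrays, leaving out clone symbols, up to 6 called and 3 uncalled members per list, and a set of pluripotency, imprinted and stress genes. Prdm14, Eif2ak4, Ppp1r15a, Nfe2l1, Cth, Lum and Prrx1 were named after their values were seen. Same-numbered arrays of the lines did not deviate together (r of 0.069, 0.043 and -0.031), so numbers were not used as pairs. Promoter windows came from RefSeq, and a gene with several windows counted once if any held the motif. The fit was tested on simulated data. Tables and plots were made in Python 3.11.15 (numpy 2.4.6, pandas 2.3.3, matplotlib 3.10.9).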

Additional observations from a re-analysis of the deposited data

How the results depend on the processing

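The count of 626 called genes was 626 with the 6 arrays alone, with the replicate block and with a trended, robust prior, because size decided each call. It was 581 to 687 with 1 array left out (347 to 404 higher, 221 to 293 lower). Testing every probe set gave 1238 called probe sets (649 higher, 589 lower). Averaging probe sets gave 414 genes, 135 of them lower, and a pseudocount of 16 gave 359 (242 higher, 117 lower). Leaving out genes under the median level gave 161 lower. The adjusted p alone gave 7243 genes (3788 higher, 3455 lower). Causes were not tested, apart from the smaller set of genes under the level filter. Over the settings that keep 1 value per gene, 0 genes were called in opposite directions. The replicate block left 700 genes against R1 and 459 against the iPS lines, the same counts as without it. Of the 98 named genes called, 28 lost the call when probe sets were averaged, 16 with the pseudocount, 10 with equal array medians and 11 without the second IP14D-1 array. With any 1 array left out, 16 of them lost the call at least once, at sizes of 0.75 to 0.995. Signal near background limits genes under about 6 on the log2 scale.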

Other observations

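Probe sets without a single gene name were tested too. Among the 9160 probe sets with no symbol, 52 were higher in IP14D-1 and 145 lower by limma's adjusted p and the same size threshold. Among the 932 with several symbols, 13 were higher and 20 lower. Of the 34945 probe sets with 1 symbol 1238 were called (649 higher, 589 lower), a greater share than of those with no symbol. By chromosome, the share of tested genes called higher in IP14D-1 was greatest on chromosomes 11 (3.12%), 7 (3.04%) and 8 (2.90%). The share called lower was greatest on the X chromosome (3.08%) and on chromosome 13 (2.71%), and no test of these shares was made.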
